A study of Mus musculus with 48 samples.

Results

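The hepatic response to 24 h of fasting was measured in mice that lack p110α in hepatocytes and ate the control (CTRL) diet. These mice, albumin-Cre+/- p110α flox/flox and named p110αhep-/- (LKO in the labels), gave 12 of the 48 arrays of the series, chosen by their labels: 6 from mice fasted from ZT16 to ZT16 of the next day (LKO_CTRL_FASTED) and 6 from mice fed ad libitum (LKO_CTRL_FED), where ZT is Zeitgeber time and ZT16 falls in the dark phase. All 12 were male, on a C57BL/6J background, had received the CTRL diet for 12 weeks from 12 weeks of age, were killed at ZT16 and carried the deletion, so a fasting response among them compares like genotypes. Cre was driven by the albumin promoter, which leaves p110α in the other cells of the liver. The remaining groups served only to test where this response differed: Cre-negative floxed littermates (p110αhep+/+, LWT in the labels) on the CTRL diet, 6 fed and 6 fasted, and p110αhep-/- mice on a high fat diet (HFD), 6 fed and 6 fasted, of the same sex, age, diet duration and ZT.

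p110α is the catalytic subunit of PI3Kα, the lipid kinase that carries the signal of the insulin receptor to Akt. In fed liver, Akt keeps FOXO transcription factors out of the nucleus and favours SREBP1c, which drives the enzymes of fatty acid synthesis. In fasting, insulin is low and glucagon, glucocorticoids and fatty acids from adipose tissue are high, and the nuclear receptor PPARα, which binds such fatty acids, turns on the genes of fatty acid oxidation and ketone body production.

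Each mouse gave 1 one-colour Agilent array. Values are normalized log2 signals, and a difference of 1 is a 2-fold difference. On the 12 arrays, 52.6% to 57.2% of probes were well above background, the median spot signal was 55 to 71 and no spot was saturated. After removal of dim probes, 20486 genes were tested, each by its brightest probe. *Pik3ca*, which encodes p110α, was read by 1 probe (chr3:32364747-32364806, mm9), with signals of 13.02 to 13.33 (median 13.26) in fed and 13.27 to 13.55 (median 13.45) in fasted mice, a log2 fold change of 0.16 (SE 0.08, limma adjusted p = 0.115). In fed mice this probe read 0.39 above p110αhep+/+ on the log2 scale. The deletion removes exons 18 and 19, and where the probe lies relative to them is not known here, so the genotype labels are taken as given. The liver label was checked by 13 hepatocyte markers: *Alb*, the albumin gene, read 18.89 to 18.95 (median 18.89) in fed and 18.89 to 18.89 (median 18.89) in fasted mice, above background on all 12 arrays. The brightest of these markers, *Alb* and *Serpina1a* among them, hold the top ranks of an array, where quantile normalization gives every array nearly the same value, so they show presence and not stability. None of the 13 passed the fold threshold for fasting. Fed and fasted mice did not overlap for 2 of the 13, beside 15.6% of all genes tested: *Ttr* (-0.30) and *Apoc3* (-0.31), both lower in fasted mice. *Apoa1* (0.35) and *Hnf4a* (0.35) were higher, with overlap between the groups. All 12 arrays lay nearest to their own group's mean. Outside them, replicate 2 of fed p110αhep+/+ mice on CTRL diet and replicate 3 of fed p110αhep-/- mice on HFD lay nearest to fed p110αhep-/- mice on CTRL diet, and the comparisons that use those arrays are given below with and without them. Among the 12, replicates 5 and 6 of the fasted mice stood apart on the second principal component, at -18.2 and -26.5 where the other 4 fasted mice lay at 6.60 to 19.9. They were also the highest in summed adipocyte markers, of which only *Fabp4* reached such signals, as given below.

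Fasting changed 1449 genes (7.07% of those tested) in p110αhep-/- mice, where a change is an adjusted p of at most 0.05 by limma over all probes and a fold change over 1.5 (a log2 change beyond 0.58). Of these, 747 rose (3.65%) and 702 fell (3.43%), and 421 of the 1449 changed by more than 2-fold. The median log2 fold change over all genes was -0.0011. The first principal component of the 12 arrays held 48.8% of the variance, with every fasted mouse on one side and every fed mouse on the other. Single-gene signals of the 6 fasted and the 6 fed mice did not overlap for 3200 genes (15.6%), with fasted mice higher for 7.21% and lower for 8.41% of the genes tested. Without replicates 5 and 6 of the fasted mice the count was 1454 (743 rose, 711 fell). Within the first washing batch of slides, 1538 genes were called, and within the second 1371.

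The metallothionein *Mt2* rose most, followed among characterised genes by *Pip5k1a* (on its brightest probe only, as given below), *Pdk4*, *Cidec*, *Cyp4a14* and *Fgf21*. *Fasn* fell most, followed by *Mid1ip1*, *Thrsp*, *Hamp2* and *Slc2a4*. By function, the lists with the highest share of rising members were PPARα targets (28 of 36), mitochondrial fatty acid oxidation (13 of 21) and glucocorticoid responsive genes (10 of 19), each beside the 3.65% of all genes that rose. Those with the highest share of falling members were fatty acid synthesis (14 of 20), cholesterol synthesis and uptake (15 of 24), ER chaperones (13 of 25) and the cell cycle (12 of 26), beside the 3.43% of all genes that fell. In bulk liver RNA, fewer cells of a type and less RNA per cell cannot be told apart.

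**Figure D1:**
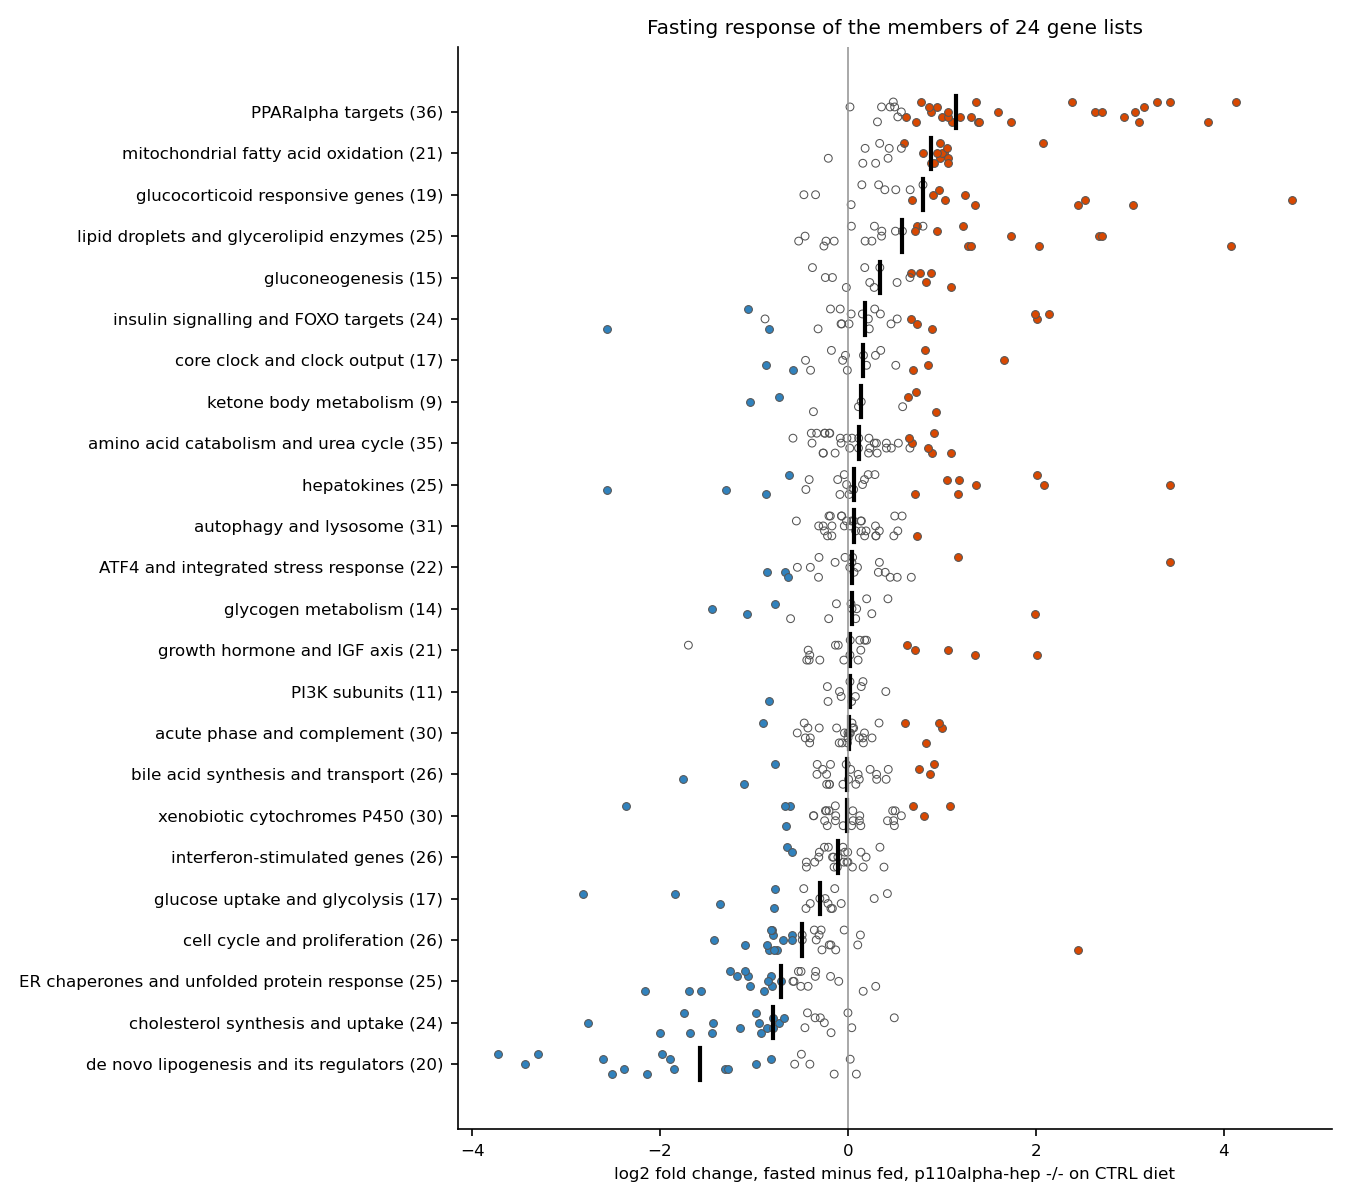
Log2 fold change of fasted over fed p110αhep-/- mice on CTRL diet for each measured member of 24 gene lists (number of members in brackets), with called rises in red, called falls in blue, other members open and the median of a list as a black bar. The medians run from -1.58 for de novo lipogenesis to 1.15 for PPARα targets, and the lists of autophagy, PI3K subunits and acute phase sit around 0.

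Genes of fatty acid synthesis fell together. Of 20 measured members of de novo lipogenesis and its regulators, 14 fell and none rose, with a median log2 fold change of -1.58, and the fed and fasted mice did not overlap for 16 of the 20, where 15.6% of all genes did not overlap. *Fasn* (fatty acid synthase, probe at chr11:120668460-120668519, mm9) had signals of 16.25 to 16.98 (median 16.63) in fed and 12.66 to 13.43 (median 12.84) in fasted mice. The 2 groups were far apart, and the log2 fold change was -3.73 (SE 0.19, limma adjusted p = 8.17e-19), a 13.3-fold fall. *Srebf1*, which encodes SREBP1, the factor that activates these genes, read 15.08 to 16.23 (median 15.48) in fed and 12.64 to 13.18 (median 12.81) in fasted mice. Its log2 fold change was -2.61 (SE 0.21, limma adjusted p = 1.88e-13), again without overlap.

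Enzymes on either side of fatty acid synthase showed the same direction with a range of sizes. *Acly*, which makes cytosolic acetyl-CoA from citrate, had a log2 fold change of -1.90 (SE 0.16, limma adjusted p = 6.99e-13), and *Acaca*, the acetyl-CoA carboxylase that feeds *Fasn*, one of -1.85 (SE 0.13, limma adjusted p = 4.28e-15). *Elovl6*, which lengthens the product of *Fasn*, went from 13.32 to 14.46 (median 13.79) in fed to 11.04 to 12.27 (median 11.48) in fasted mice, -2.38 (SE 0.19, limma adjusted p = 1.97e-13) on the log2 scale. The desaturase *Scd1* fell by less, at -1.28 (SE 0.24, limma adjusted p = 5.21e-05), with no overlap between the groups. *Thrsp* and *Mid1ip1*, partners that raise the activity of acetyl-CoA carboxylase and lipogenesis, had log2 fold changes of -3.29 (SE 0.32, limma adjusted p = 3.15e-11) and -3.44 (SE 0.23, limma adjusted p = 2.54e-15). No overlap was seen for either of these.

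Signals of 2 patatin-like lipases that SREBP1 is known to activate dropped to background. *Pnpla3* read 6.17 to 8.12 (median 7.38) in the fed mice and was not well above background on any array of fasted mice, a fall of at least 3.47-fold, with a measured log2 fold change of -1.98 (SE 0.32, limma adjusted p = 3.19e-06). *Pnpla5* read 6.73 to 10.02 (median 7.67) in the fed mice and likewise stood above background on none of the 6 arrays of fasted mice, a fall of at least 5.27-fold (limma adjusted p = 3.91e-08). A bound here sets the fed mean against the dimmest signal that counts as above background, or the probe's own where that is higher. The members that did not pass were *Fads1* (-0.57), *Acss2* (-0.49), *Slc25a1* (-0.40), *Gpam* (-0.15), *Fads2* (0.02) and *Elovl5* (0.09). *Mlxipl*, which encodes the glucose sensor ChREBP, had a log2 fold change of -0.82 on its brightest probe, and its 3 probes ran from -0.89 to 0.09. For the other acetyl-CoA carboxylase, *Acacb*, the value was -0.98, and the call was lost without replicate 3 of the fed mice (-0.70, limma adjusted p = 0.0574) and over the median of its probes (-0.10).

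Cholesterol genes, the targets of SREBP2, fell by less. Of 24 measured, 15 fell and none rose, with a median log2 fold change of -0.80. *Fdps*, which makes farnesyl diphosphate, had signals of 12.34 to 13.07 (median 12.72) in fed and 10.27 to 11.34 (median 10.76) in fasted mice. The groups did not overlap, and the log2 fold change was -2.0 (SE 0.23, limma adjusted p = 2.63e-09). Further along the pathway, it was -1.45 (SE 0.42, limma adjusted p = 0.00563) for *Sqle*, squalene epoxidase, and -0.92 for *Cyp51*, the lanosterol demethylase. *Insig1*, which holds the SREBP complex in the ER, changed by -1.68 and *Srebf2*, the gene of SREBP2 itself, by 0.04, the latter short of the threshold. *Hmgcs1* (-0.25), *Idi1* (-0.43) and *Fdft1* (0.00) did not pass either.

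**Figure D2:**
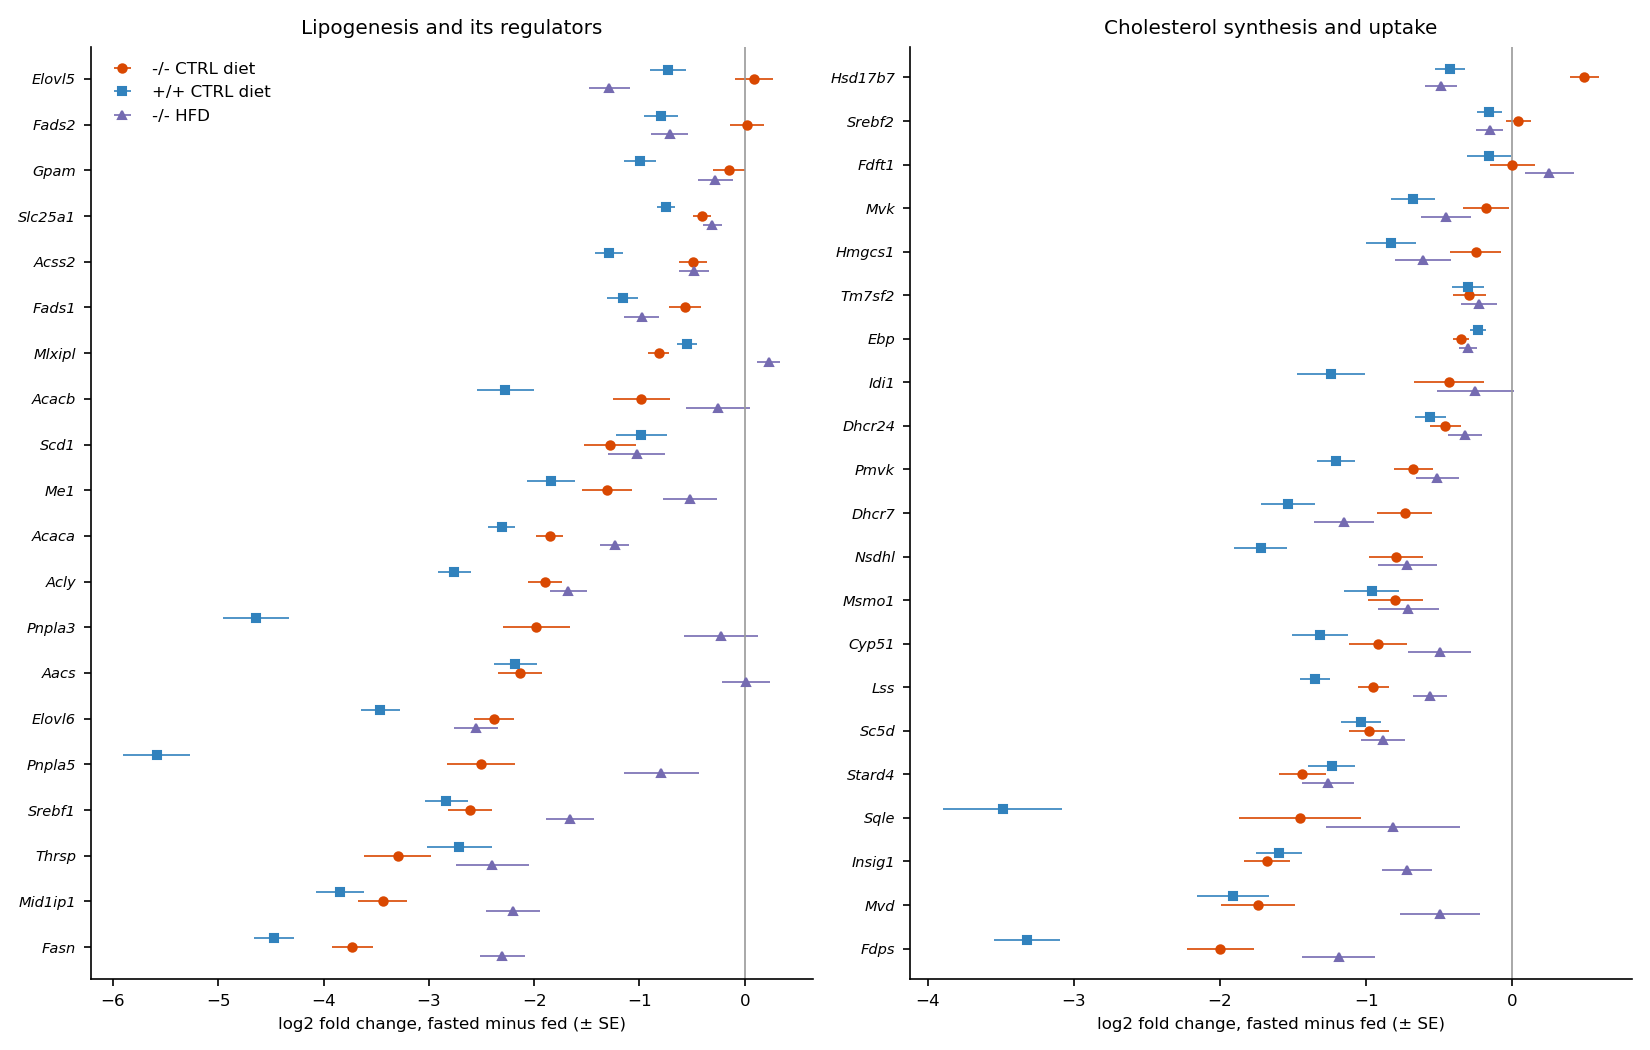
Log2 fold change of fasted over fed mice (points, with the standard error as bars) for members of the lipogenesis and cholesterol lists in p110αhep-/- mice on CTRL diet (red circles), p110αhep+/+ mice on CTRL diet (blue squares) and p110αhep-/- mice on HFD (purple triangles), n = 6 fed and 6 fasted mice each. Most red circles lie left of 0, and for *Sqle*, *Fdps* and *Elovl6* the blue squares lie further left than the red circles. *Pnpla3* and *Pnpla5* are drawn at their measured values, although they were above background on no array of fasted p110αhep-/- mice.

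Of 17 genes of glucose uptake and glycolysis, 5 fell and none rose, with a median log2 fold change of -0.30. *Pklr*, liver pyruvate kinase, fell from 9.73 to 10.73 (median 10.07) to 7.72 to 8.77 (median 8.35), a log2 fold change of -1.84 (SE 0.22, limma adjusted p = 6.03e-09). *Khk*, which phosphorylates fructose, had -1.36 (SE 0.12, limma adjusted p = 2.22e-12), and *Gpi1* and *Gckr* had -0.78 and -0.78.

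Of 15 gluconeogenic genes, 5 rose and none fell. *Pck1*, which encodes the cytosolic phosphoenolpyruvate carboxykinase, had signals of 15.89 to 16.77 (median 16.41) in fed and 17.00 to 17.28 (median 17.04) in fasted mice. Its log2 fold change was 0.76 (SE 0.21, limma adjusted p = 0.00346), and fed and fasted mice did not overlap. *G6pc*, the catalytic subunit of glucose-6-phosphatase, read 14.73 to 16.11 (median 15.09) in fed and 14.68 to 15.83 (median 15.49) in fasted mice and did not pass (0.34 (SE 0.21, limma adjusted p = 0.224)). The other risers were *Got1* (1.1), the coactivator *Ppargc1a* (0.83), the kinase *Sik1* (0.88) and *Foxo1* (0.67, and 0.58 without replicate 2 of the fasted mice, which is below the fold threshold). In glycogen metabolism 3 of 14 genes fell: *Pygl*, liver glycogen phosphorylase (-1.45 (SE 0.08, limma adjusted p = 5.06e-18)), the branching enzyme *Gbe1* (-1.08) and *Ugp2* (-0.78), which makes UDP-glucose. *Ppp1r3g*, a subunit that directs protein phosphatase 1 to glycogen, was the only riser of that list, from 7.98 to 9.57 (median 8.55) to 10.07 to 11.13 (median 10.64), with a log2 fold change of 2.0 (SE 0.31, limma adjusted p = 1.9e-06). The synthase *Gys2* changed by 0.43, within the fold threshold.

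Genes of insulin signalling and FOXO targets moved in both directions. Of 24 measured, 6 rose and 3 fell. Since these mice lack in hepatocytes a kinase that links the insulin receptor to FOXO, the promoters of the called members that hold a match to a FOXO or insulin-linked motif are shown before their values, together with 2 genes discussed elsewhere: *Thrsp*, whose promoter holds the same insulin response letters, and *Ciart*, a clock output gene with E-boxes. Each line gives the 250 bases before the annotated start in mouse RefSeq (GRCm38.p6), 5′ to 3′ on the gene's strand, with matches in capitals: CAAAACA or its reverse complement (insulin response sequence), GTAAACA (forkhead) and CACGTG (E-box).

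Igfbp1: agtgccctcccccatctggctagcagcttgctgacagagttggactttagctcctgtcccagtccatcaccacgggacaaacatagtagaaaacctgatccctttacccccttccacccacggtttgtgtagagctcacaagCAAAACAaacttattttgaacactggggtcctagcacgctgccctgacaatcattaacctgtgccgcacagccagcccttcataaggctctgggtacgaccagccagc
Irs2: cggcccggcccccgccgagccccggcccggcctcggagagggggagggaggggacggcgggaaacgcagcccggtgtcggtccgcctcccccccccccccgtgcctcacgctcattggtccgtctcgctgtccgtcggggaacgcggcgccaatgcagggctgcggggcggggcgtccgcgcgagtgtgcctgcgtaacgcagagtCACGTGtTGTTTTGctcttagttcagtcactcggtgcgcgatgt
Txnip: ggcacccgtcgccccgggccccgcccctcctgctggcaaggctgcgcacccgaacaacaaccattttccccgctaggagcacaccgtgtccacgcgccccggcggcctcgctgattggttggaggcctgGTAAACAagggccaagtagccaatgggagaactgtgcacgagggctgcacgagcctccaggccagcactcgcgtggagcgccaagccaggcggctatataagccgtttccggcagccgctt
Thrsp: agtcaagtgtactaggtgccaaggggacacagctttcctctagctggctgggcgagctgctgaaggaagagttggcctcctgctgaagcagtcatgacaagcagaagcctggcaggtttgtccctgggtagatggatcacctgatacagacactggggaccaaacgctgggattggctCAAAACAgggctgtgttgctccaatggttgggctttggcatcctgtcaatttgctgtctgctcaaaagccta
Ciart: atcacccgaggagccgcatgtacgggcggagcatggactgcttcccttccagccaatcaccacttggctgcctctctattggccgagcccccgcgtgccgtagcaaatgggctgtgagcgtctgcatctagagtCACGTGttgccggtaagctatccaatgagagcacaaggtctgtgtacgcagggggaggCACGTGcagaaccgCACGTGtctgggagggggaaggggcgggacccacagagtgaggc

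These windows lie at chr11:7197537-7197786 on the plus strand (*Igfbp1*), chr8:11008930-11009179 on the minus strand (*Irs2*), chr3:96557707-96557956 on the plus strand (*Txnip*), chr7:97417551-97417800 on the minus strand (*Thrsp*) and chr3:95882229-95882478 on the minus strand (*Ciart*). Motifs were searched as exact letters on both strands, from 250 bases before to 50 after the start. Over all 32851 promoters of that length, CAAAACA occurred in 6.28%, GTAAACA in 3.65%, CACGTG in 7.15% and the sterol response core TCACNCCAC in 1.24%. Among the 20 insulin and FOXO genes with a promoter in RefSeq, 3 held CAAAACA, 3 GTAAACA and 5 CACGTG. Of the 18 lipogenic genes with one, 1 held CAAAACA, 2 GTAAACA, 1 TCACNCCAC and 4 CACGTG. A match describes the sequence only.

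*Igfbp1*, which encodes a binding protein that holds IGF1 and is a classical FOXO target, read 13.32 to 15.19 (median 14.42) in fed and 16.09 to 16.86 (median 16.43) in fasted mice. The log2 fold change was 2.02 (SE 0.45, limma adjusted p = 0.000454), with no overlap between the groups. *Irs2*, the docking protein through which the insulin receptor engages PI3K, had signals of 10.23 to 11.58 (median 11.12) in fed and 11.44 to 12.30 (median 11.83) in fasted mice and rose by 0.89 (SE 0.26, limma adjusted p = 0.00699). *Txnip*, an inhibitor of thioredoxin and of glucose uptake, rose from 12.26 to 13.30 (median 12.76) to 13.87 to 15.29 (median 14.87), a log2 fold change of 2.14 (SE 0.18, limma adjusted p = 3.94e-13). *Trib1*, a pseudokinase of lipid metabolism, rose by 0.74. The 3 that fell were the hormone gene *Angptl8*, named *Gm6484* on the array, from 13.38 to 15.84 (median 14.37) to 11.59 to 12.19 (median 11.99) (-2.57 (SE 0.41, limma adjusted p = 3.35e-06)), *Cited2* (-1.06) and *Sesn3* (-0.84). The receptor *Insr* (0.35), *Irs1* (0.29), *Akt1* (-0.32) and *Akt2* (-0.07) were not called. Of the 11 PI3K subunit genes, only the regulatory subunit *Pik3r3* was called, at -0.84 (SE 0.10, limma adjusted p = 1.12e-08). *Pik3cb*, which encodes p110β, the other class I catalytic subunit broadly present in tissues, changed by -0.21 and did not pass.

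PPARα targets rose as the broadest group. Of 36 measured, 28 rose and none fell, the median log2 fold change was 1.15, and fed and fasted mice did not overlap for 32 of them, beside 15.6% of all genes. *Pdk4*, which shuts pyruvate out of the citric acid cycle (probe at chr6:5433441-5433500, mm9), read 7.47 to 9.10 (median 8.17) in fed and 10.54 to 13.18 (median 12.57) in fasted mice. The groups were apart, and the log2 fold change was 4.13 (SE 0.39, limma adjusted p = 2.11e-11), a 17.5-fold rise. Its 2 lowest fasted mice were replicates 5 and 6, and without them the rise was 4.62. *Fgf21*, a hormone of the fasted liver, read 6.18 to 7.67 (median 7.30) in fed and 10.48 to 10.80 (median 10.58) in fasted mice, a log2 fold change of 3.43 (SE 0.24, limma adjusted p = 4.06e-15). Every fasted mouse was above every fed mouse.

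The cytochromes of ω-oxidation, the oxidation of fatty acids from the methyl end, rose with log2 fold changes of 3.84 (SE 0.41, limma adjusted p = 5.54e-10) for *Cyp4a14*, 3.29 (SE 0.24, limma adjusted p = 2.39e-14) for *Cyp4a10* and 2.94 (SE 0.24, limma adjusted p = 4.29e-13) for *Cyp4a31*. Acyl-CoA thioesterases, which free fatty acids from coenzyme A, rose as a family: *Acot1* by 3.06, *Acot2* by 3.16, *Acot3* by 2.39, *Acot4* by 1.39 and *Acot5* by 3.41. Probes of such close paralogs may read each other's RNA, which was not tested. *Acot2* itself went from 7.99 to 8.70 (median 8.39) to 10.95 to 11.93 (median 11.56), with no overlap. *Vnn1*, a pantetheinase, rose from 8.34 to 9.77 (median 9.16) to 11.91 to 12.78 (median 12.15), a log2 fold change of 3.10 (SE 0.22, limma adjusted p = 1.31e-14). Peroxisomal *Ehhadh* rose by 2.63 (SE 0.18, limma adjusted p = 2.24e-15). *Ppara* itself rose by 0.78 (SE 0.07, limma adjusted p = 9.2e-12). The members that did not pass included *Cd36* (0.31), a fatty acid transporter, and *Fabp1* (0.02).

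**Figure D3:**
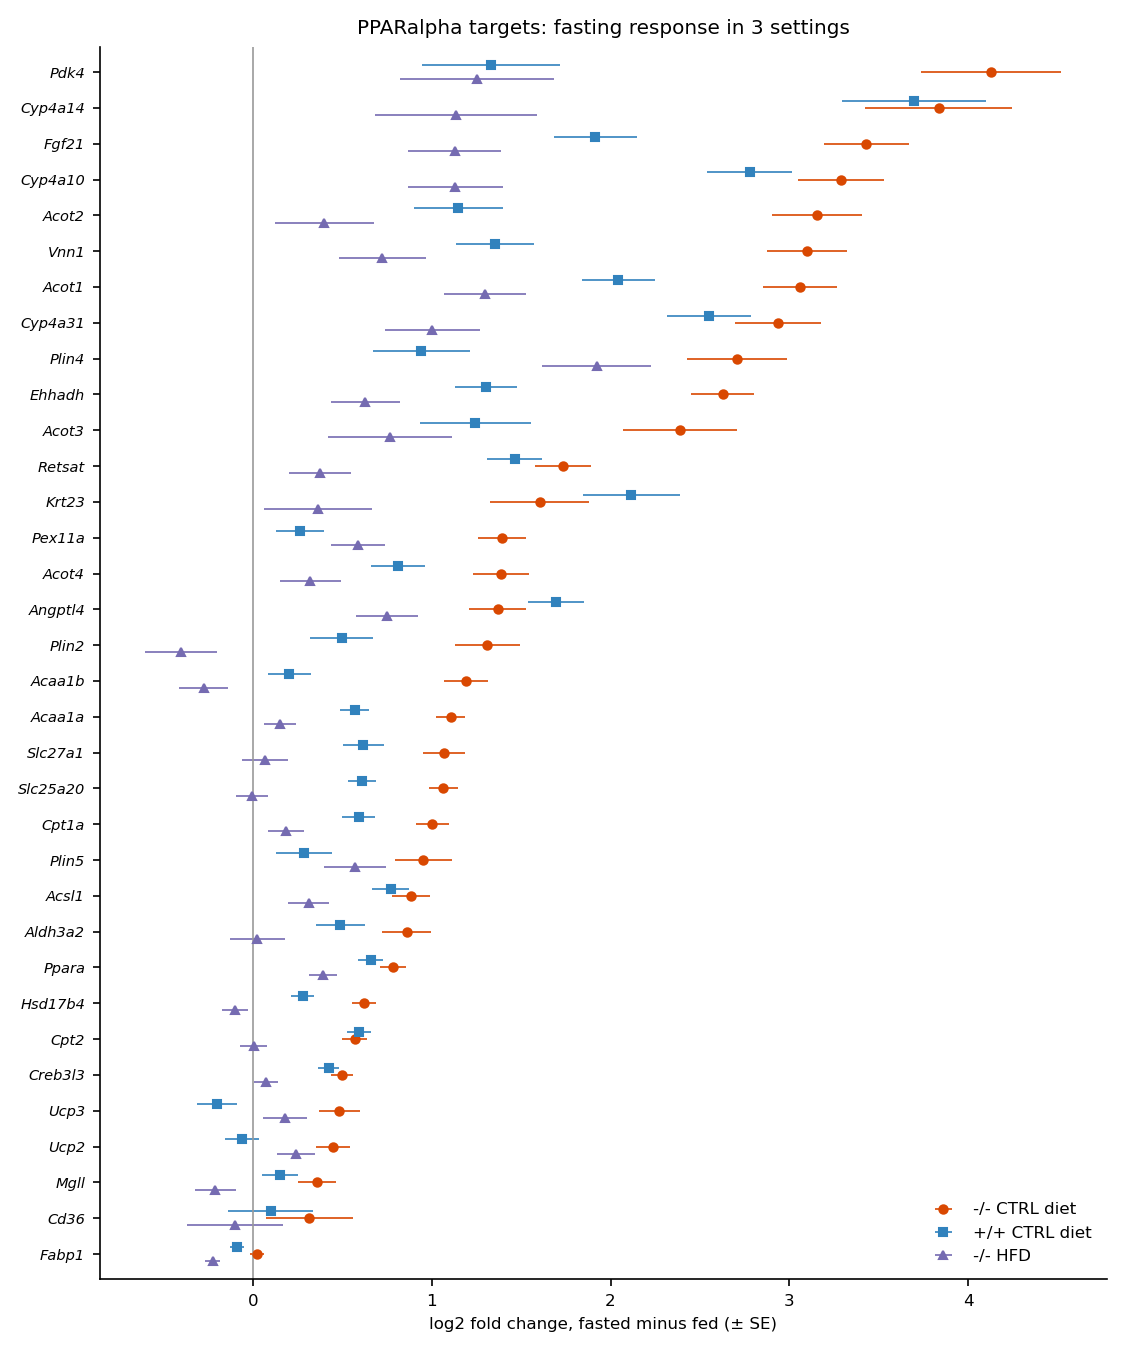
Log2 fold change of fasted over fed mice (points, with the standard error as bars) for PPARα targets in p110αhep-/- mice on CTRL diet (red circles), p110αhep+/+ mice on CTRL diet (blue squares) and p110αhep-/- mice on HFD (purple triangles), n = 6 fed and 6 fasted mice each. Red circles reach 4.13 for *Pdk4*, and most purple triangles lie nearer to 0 than the red circles, with a list median of 0.32 against 1.15.

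In mitochondrial β-oxidation, 13 of 21 genes rose and none fell, with a median log2 fold change of 0.88. *Slc22a5*, the carnitine transporter, read 10.18 to 10.81 (median 10.45) in fed and 12.20 to 12.81 (median 12.49) in fasted mice, the most of this list at 2.07 (SE 0.12, limma adjusted p = 3.16e-17), with no overlap. *Cpt1a*, which commits fatty acids to the mitochondrion, read 14.02 to 14.61 (median 14.33) in fed and 15.23 to 15.68 (median 15.26) in fasted mice and rose by 1.0 (SE 0.09, limma adjusted p = 1.29e-11). The trifunctional protein rose in both subunits, *Hadha* by 0.95 and *Hadhb* by 1.06, and the acyl-CoA dehydrogenases *Acadm* and *Acadl* by 1.02 and 0.98. Of 9 genes of ketone body metabolism, 3 rose and 2 fell. *Acat1*, which joins acetyl-CoA units, read 12.35 to 12.77 (median 12.62) in fed and 13.35 to 13.99 (median 13.46) in fasted mice and rose by 0.94 (SE 0.09, limma adjusted p = 9.68e-11). *Bdh1*, the last step to β-hydroxybutyrate, was just short of the fold threshold at 0.58. *Slc16a6*, a transporter by which ketone bodies leave the hepatocyte, fell by 0.73 (SE 0.18, limma adjusted p = 0.000996), and *Bdh2* had -1.04.

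Genes of lipid droplets rose in 11 of 25 cases and fell in none (median 0.58). *Cidec*, which encodes a protein that fuses lipid droplets (probe at chr6:113374693-113374752, mm9), read 7.58 to 9.06 (median 8.03) in fed and 11.22 to 13.85 (median 12.20) in fasted mice. No fasted mouse was as low as any fed mouse, and the log2 fold change was 4.08 (SE 0.42, limma adjusted p = 1.59e-10), or 16.9-fold. Replicates 5 and 6, the 2 fasted mice with the highest adipocyte sum, which *Fabp4* carried, were also the 2 highest for *Cidec*, at 13.85 each. Without them the rise was 3.69. *G0s2*, an inhibitor of the triglyceride lipase ATGL, read 11.85 to 13.68 (median 12.95) in fed and 14.08 to 15.26 (median 14.98) in fasted mice and rose by 2.03 (SE 0.38, limma adjusted p = 4.69e-05). *Pnpla2*, which encodes ATGL, also rose, by 1.22 (SE 0.12, limma adjusted p = 6.05e-11). The droplet coats *Plin4*, *Plin2* and *Plin5* rose by 2.71, 1.31 and 0.95, and *Hilpda* by 1.73. *Gpat3*, an acyltransferase of triglyceride synthesis named *Agpat9* on the array, rose by 2.67 (SE 0.21, limma adjusted p = 2.47e-13). *Dgat2*, the last step of triglyceride synthesis, changed by -0.46 and *Dgat1* by 0.18, neither called.

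Among 25 secreted factors of the liver, 8 rose and 4 fell. Besides *Fgf21*, *Igfbp1* and *Angptl4* (1.37), an inhibitor of lipoprotein lipase, the risers were the activin subunits *Inhbb* (2.08 (SE 0.19, limma adjusted p = 6.36e-12)) and *Inhbe* (1.19), *Gdf15* (1.17), a hormone that curbs appetite, *Fgl1* (1.06) and *Igfbp2* (0.71). *Inhba*, another activin subunit, fell by 1.30 (SE 0.20, limma adjusted p = 1.42e-06) while *Inhbb* went from 6.98 to 8.09 (median 7.30) to 9.17 to 9.99 (median 9.39). *Lect2* fell by 0.87 (SE 0.10, limma adjusted p = 4.84e-09). Follistatin, encoded by *Fst*, had -0.63, and its call was lost without replicate 4 of the fasted mice (-0.55, under the fold threshold).

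ER chaperones fell as a group. Of 25 genes of the unfolded protein response, 13 fell and none rose, with a median log2 fold change of -0.71. The number was 17 within the first washing batch and 8 within the second. *Sdf2l1*, a partner of ER chaperones, read 10.26 to 11.65 (median 11.11) in fed and 7.74 to 9.78 (median 8.74) in fasted mice, a log2 fold change of -2.16 (SE 0.36, limma adjusted p = 5.99e-06). Fed mice all lay above fasted mice. *Hspa5*, which encodes BiP, the main chaperone of the ER, had signals of 15.37 to 16.02 (median 15.78) in fed and 14.20 to 15.20 (median 14.54) in fasted mice and fell by 1.06 (SE 0.22, limma adjusted p = 0.000186). *Derl3*, part of the machinery that draws misfolded proteins out of the ER, had -1.69 (SE 0.48, limma adjusted p = 0.00536), and *Manf*, *Pdia6*, *Creld2* and *Hyou1* had -1.56, -1.26, -1.18 and -1.09. *Ern1*, the sensor IRE1α, fell by 0.90 (SE 0.11, limma adjusted p = 1.39e-08). Its target *Xbp1* (-0.50) and the sensor *Atf6* (0.16) were not called. Probes disagreed for *Dnajb11* (3 probes from -1.05 to 1.43), and the call of *Syvn1* was lost without replicate 3 of the fed mice (-0.73, limma adjusted p = 0.0565).

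**Figure D4:**
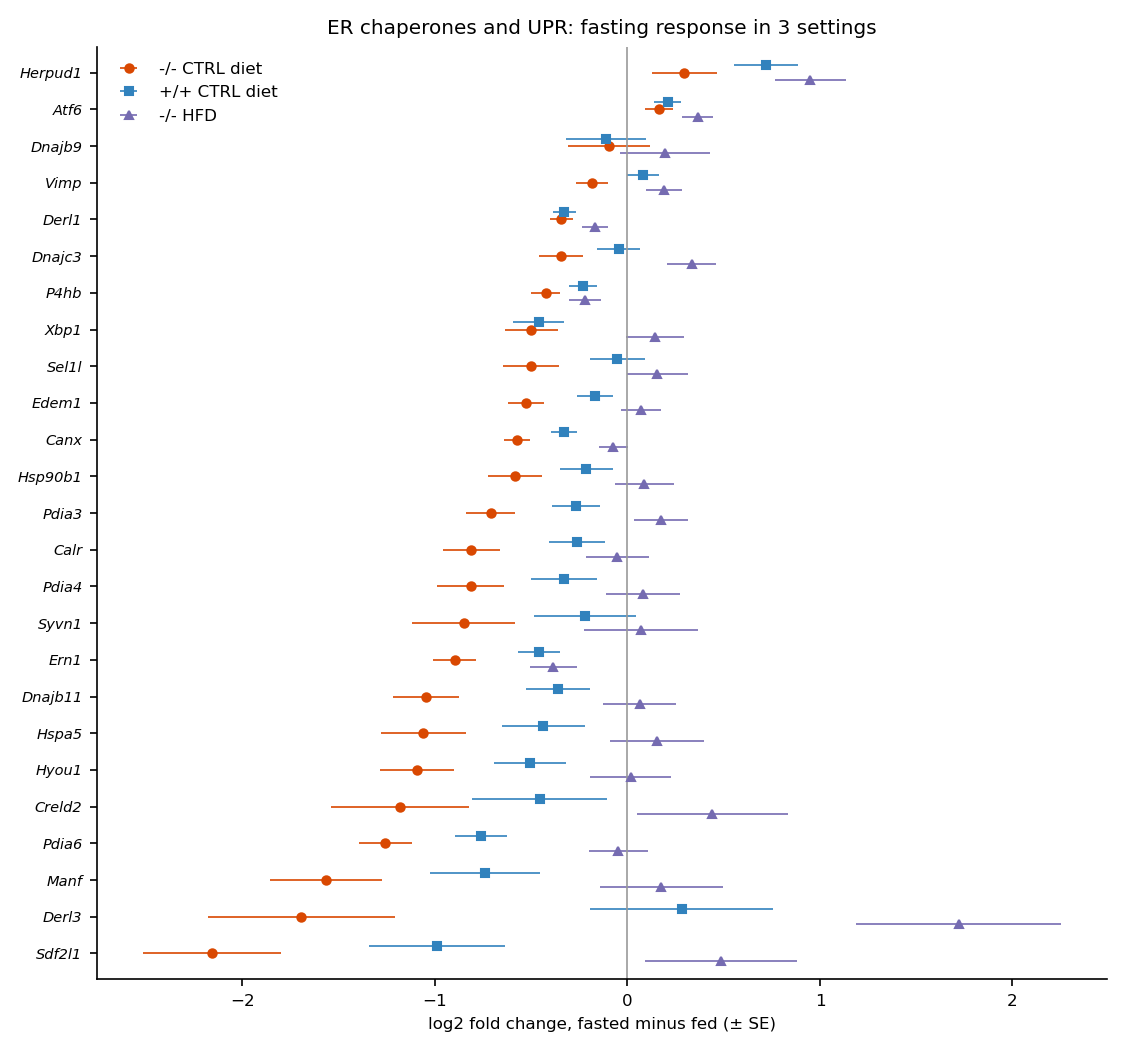
Log2 fold change of fasted over fed mice (points, with the standard error as bars) for 25 genes of ER chaperones and the unfolded protein response in p110αhep-/- mice on CTRL diet (red circles), p110αhep+/+ mice on CTRL diet (blue squares) and p110αhep-/- mice on HFD (purple triangles), n = 6 fed and 6 fasted mice each. The red circles lie left of 0 for most genes, down to -2.16 for *Sdf2l1*, while the purple triangles of the same genes cluster around 0 with a median of 0.14.

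Of 22 genes of the ATF4 and integrated stress response, 2 rose (*Fgf21* and *Gdf15*) and 3 fell, beside 3.65% and 3.43% of all genes tested. Among those that fell was *Ddit3*, which encodes the stress factor CHOP, at -0.67 (SE 0.17, limma adjusted p = 0.00149). *Nupr1* fell on its brightest probe, and its 2 probes had -0.87 and 0.18. The other was *Psph*, near the fold threshold (-0.64), whose call was lost without replicate 5 or 6 of the fed mice (reaching -0.57). *Atf4* itself changed by -0.40. In amino acid catabolism, 6 of 35 genes rose and none passed the fold threshold downward, though *Haao*, of tryptophan breakdown, stood just under it (-0.58, limma adjusted p = 8.47e-10) and 1 gene fell under several alternatives, such as the fit without array weights. The genes that rose were led by *Got1*, the amino acid transporters *Slc38a2* (0.92) and *Slc7a2* (0.85), and the lysine-degrading *Aass* (0.90). The urea cycle enzymes *Cps1* (-0.07), *Otc* (-0.38), *Ass1* (-0.19) and *Asl* (0.22) were not called. In autophagy, 1 of 31 genes rose, beside 3.65% of all genes tested, *Map1lc3a* at 0.73 (SE 0.08, limma adjusted p = 1.65e-09), and the median was 0.06. The count was 2 in some fits with 1 array left out, 3 with 75th percentile scaling, and 5 with median scaling and within the second washing batch.

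Genes that respond to glucocorticoids rose in 10 of 19 cases and fell in none (median 0.80). The metallothioneins *Mt2* and *Mt1*, small proteins that bind zinc, rose most. *Mt2* (probe at chr8:96697371-96697430, mm9) read 11.42 to 14.12 (median 12.41) in fed and 16.75 to 17.87 (median 17.43) in fasted mice, a log2 fold change of 4.73 (SE 0.44, limma adjusted p = 1.62e-11) and a 26.5-fold rise. *Mt1* rose from 13.15 to 15.00 (median 14.47) to 16.92 to 17.69 (median 17.45), at 3.04 (SE 0.42, limma adjusted p = 1.53e-07). Neither gene had a fed mouse within the range of the fasted mice. *Gadd45b*, a stress gene, rose by 2.53 (SE 0.28, limma adjusted p = 8.27e-10) and the cell cycle inhibitor *Cdkn1a*, which encodes p21, by 2.45 (SE 0.39, limma adjusted p = 2.26e-06). *Fkbp5*, a chaperone partner of the glucocorticoid receptor and its target, rose by 1.35, and the factors *Cebpd*, *Cebpb* and *Klf9* by 1.25, 1.04 and 0.91. *Per1* (0.51), *Sgk1* (0.15) and *Tsc22d3* (-0.47), other targets of that receptor, were not called, nor was the receptor gene *Nr3c1* (-0.34).

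All mice were killed at the same ZT. Of 17 clock genes, 4 rose and 2 fell, beside 3.65% and 3.43% of all genes tested, and 11 did not pass. *Ciart*, a clock-controlled repressor whose promoter, shown above, holds 3 CACGTG matches, read 5.90 to 7.5 (median 6.13) in fed and 7.60 to 8.45 (median 7.94) in fasted mice and rose by 1.66 (SE 0.32, limma adjusted p = 4.95e-05). The nuclear receptors *Nr1d1* and *Nr1d2* (REV-ERBα and β) rose by 0.82 and 0.69. *Dbp* had 0.86, and its call was lost without replicate 5 (0.72, limma adjusted p = 0.0749) or 6 (0.62, limma adjusted p = 0.111) of the fed mice. *Bhlhe40* fell by 0.87 (SE 0.19, limma adjusted p = 0.000401). *Arntl* (-0.40), which encodes BMAL1, *Clock* (0.29), *Per2* (-0.45) and *Cry1* (-0.18) were not called.

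Bile acid genes were called in both directions, 3 up and 3 down of 26. *Cyp7a1*, the rate-limiting enzyme of bile acid synthesis, read 9.16 to 12.10 (median 10.71) in fed and 7.51 to 10.16 (median 9.25) in fasted mice. Its log2 fold change was -1.75 (SE 0.40, limma adjusted p = 0.000524), and the groups overlapped. *Abcb11*, the bile salt export pump, fell by 1.11 (SE 0.14, limma adjusted p = 2.09e-08), and *Fgfr4*, the receptor through which FGF15 restrains *Cyp7a1*, had -0.77. *Slco1a4* (0.92) and *Abcc3* (0.87), transporters of the blood-facing membrane, rose, as did *Cyp8b1*, at 0.75, a call lost without replicate 5 of the fasted or replicate 3 of the fed mice (limma adjusted p up to 0.126). *Cyp2c70*, which makes the muricholic acids of rodents, fell from 15.62 to 16.32 (median 15.98) to 11.90 to 14.36 (median 13.97), at -2.36 (SE 0.29, limma adjusted p = 1.4e-08). It led the 4 of 30 xenobiotic P450 genes that fell, while *Por*, the reductase that serves all of them, rose by 1.08 (SE 0.13, limma adjusted p = 3.81e-09) and the receptor *Nr1i2* (PXR) by 0.81.

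In the growth hormone and IGF axis 5 of 21 genes rose: *Igfbp1* and *Igfbp2*, given above, *Cux2* (1.35) and the feedback inhibitors *Socs2* (1.07) and *Socs3* (0.63), whose calls were lost in 5 and 7 of 12 fits that left out 1 array. *Igf1* (0.02) and the receptor *Ghr* (-0.42) were not called. Of 30 acute phase and complement genes, 4 rose and 1 fell, beside 3.65% and 3.43% of all genes tested. *Lbp* rose the most, at 1.0 (SE 0.11, limma adjusted p = 1.06e-09), and the list median was 0.01. Without replicate 3 of the fed mice 2 rose, since the calls of *Lcn2* and *Serpina3n* were lost, and within the second washing batch 1 rose. Of 26 interferon-stimulated genes, 2 were called lower, beside 3.43% of all genes tested, and 0 to 2 were when 1 array was left out. Both lay near the fold threshold: *Ifi27l2a* at -0.65, which reached -0.55 with single arrays left out, and *Oasl1* at -0.59, which reached -0.51.

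Proliferation genes fell in 12 of 26 cases (median -0.49), and 8 fell in the first and 9 in the second washing batch. *Rrm2*, a subunit of ribonucleotide reductase, read 9.69 to 10.61 (median 10.22) in fed and 8.48 to 8.91 (median 8.69) in fasted mice and fell by 1.42 (SE 0.20, limma adjusted p = 3.37e-07). *Ccnd1*, cyclin D1, had -1.1 (SE 0.24, limma adjusted p = 0.000374), the replication helicase genes *Mcm4*, *Mcm3* and *Mcm2* had -0.86, -0.84 and -0.81, and *Mki67* had -0.78. *Cdkn1a*, described above, was the only riser.

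Markers of other liver cells changed in part, and their share in the results above was not tested. Over all genes tested, 3.65% rose and 3.43% fell, so that an absence of calls in lists this short says little. None of 12 Kupffer cell and 8 neutrophil markers was called. In stellate cells and fibroblasts 4 of 12 fell, with -1.48 (SE 0.20, limma adjusted p = 1.54e-07) for *Col3a1*, -1.17 for *Col1a1*, -0.77 for *Col1a2* and -0.72 for *Acta2*. The summed log2 signal of the 12 was 15.20 to 15.51 in fed and 14.87 to 15.27 in fasted mice. Red cell markers were lower, 5 of 7, with *Hba-a2* at -0.89 and a sum of 18.10 to 19.03 in fed and 17.59 to 18.48 in fasted mice. All 5 were called within the first washing batch and none within the second. The cholangiocyte sum went from 9.88 to 10.33 to 9.53 to 9.85, with *Krt19* and *Spp1* of 8 lower, *Krt19* being above background on 3 of 6 arrays of fasted mice. *Lyve1*, of the sinusoidal endothelium, was higher by 1.07 (SE 0.22, limma adjusted p = 0.000202), the only one of 10. For adipocytes, none of 5 markers was called, and the sums were 10.32 to 10.88 in fed and 10.35 to 12.98 in fasted mice. In p110αhep+/+ mice on CTRL diet they were 10.67 to 13.62 in fed and 11.16 to 12.72 in fasted mice. Replicates 5 and 6 of the fasted p110αhep-/- mice stood above all others of their genotype on that diet, at 12.96 and 12.98 against 10.35 to 10.72 for the other 4 fasted. Of the 5 markers *Fabp4*, a fatty acid binding protein, was the one that reached such signals, with 9.90 to 10.59 (median 10.41) in fed and 9.99 to 12.92 (median 10.38) in fasted mice, while *Cfd*, *Retn* and *Plin1* read 6.94 or less on all 12 arrays. Without these 2 mice, 27 of 36 PPARα targets, 12 of 21 genes of fatty acid oxidation and 10 of 25 of lipid droplets rose, and 14 of 20 lipogenic, 15 of 24 cholesterol, 14 of 25 ER chaperone and 10 of 26 proliferation genes fell. The sum of 4 exocrine pancreas markers was 13.42 to 13.72 in fed and 12.81 to 13.20 in fasted mice, with *Cela1* lower. For 11 lymphocyte markers the sums were 13.48 to 14.13 and 14.03 to 14.33, where *Cd4* alone was called, a gene whose 2 probes had -0.05 and 0.60 and whose call was lost in 6 of 12 fits that left out 1 array.

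Several of the most changed genes belonged to none of these lists. *Hamp2*, a paralog of the iron hormone hepcidin, fell from 13.63 to 14.99 (median 14.06) to 9.75 to 12.44 (median 10.84), a log2 fold change of -3.13 (SE 0.84, limma adjusted p = 0.00285), while *Hamp*, the hepcidin gene, changed by 0.18 and was not called. *Slc2a4*, the insulin-regulated glucose transporter GLUT4 of muscle and fat, read 9.30 to 9.88 (median 9.67) in fed and 5.90 to 7.63 (median 6.63) in fasted mice and fell by 2.88 (SE 0.21, limma adjusted p = 1.56e-14). *Ihh*, a hedgehog ligand, fell by 2.31 (SE 0.25, limma adjusted p = 7.87e-10). *Pip5k1a*, a kinase that makes the lipid substrate of PI3K, rose by 4.27 (SE 0.35, limma adjusted p = 3.41e-13) on its brightest probe only: its 3 probes ran from 0.01 to 4.27, and over the median of them it was not called (0.06, limma adjusted p = 0.37).

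The response was then set beside that of p110αhep+/+ mice on the same diet. In those, 1116 genes changed (5.45%), 600 up (2.93%) and 516 down (2.52%). A set of 693 genes was called in both genotypes, 47.8% of those in p110αhep-/- and 62.1% of those in p110αhep+/+ mice, 689 in the same direction. The difference between the responses, the genotype by fasting interaction, was called for 269 genes (1.31%), with 128 more positive (0.625%) and 141 more negative (0.688%) in p110αhep-/- mice. Within single washing batches the count was 107 and 18, and without replicate 2 of fed p110αhep+/+ mice, the array that lay apart from its group, it was 354 (162 more positive, 192 more negative). Without that array 1214 genes were called in p110αhep+/+ mice, and 698 in both genotypes, 48.2% of those in p110αhep-/- and 57.5% of those in p110αhep+/+ mice. By list, the interaction was positive for 10 of 36 PPARα targets, 8 of 20 lipogenic, 5 of 25 lipid droplet and 4 of 24 cholesterol genes, and negative for none of these. Without that array the 4 counts were 11, 9, 6 and 5, and without replicates 5 and 6 of fasted p110αhep-/- mice 11, 6, 6 and 3. With 1 array left out, the calls of *Acacb*, *Acot1*, *Sqle*, *Nsdhl* and *Fads2* were lost in 16, 15, 13, 9 and 5 of 24 fits, and those of *Acly* and *Ucp3* in 1 each.

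The positive interactions came about in different ways. For *Cidec* and the PPARα targets named here the rise was larger without p110α. Summed adipocyte markers of fed mice were 10.67 to 13.62 (median 12.34) in p110αhep+/+ and 10.32 to 10.88 (median 10.69) in p110αhep-/- mice. Whether they have a share in these interactions was not tested. *Cidec* changed by 0.59 in p110αhep+/+ mice, from 10.31 to 12.83 (median 12.30) to 12.07 to 13.49 (median 12.53), against 4.08 in p110αhep-/- mice, an interaction of 3.49 (SE 0.59, limma adjusted p = 0.000378). *Pdk4* rose by 1.33 in p110αhep+/+ mice, an interaction of 2.80 (SE 0.55, limma adjusted p = 0.00235), *Acot2* by 1.15 (2.01 (SE 0.35, limma adjusted p = 0.000685)) and *Fgf21* by 1.91 (1.52 (SE 0.33, limma adjusted p = 0.00559)). With single arrays left out, the interaction was 3.26 to 3.81 for *Cidec* and 2.48 to 3.08 for *Pdk4*. Among lipogenic genes, *Elovl6* fell by less without p110α: it changed by -3.46 in p110αhep+/+ mice, an interaction of 1.08 (SE 0.26, limma adjusted p = 0.0136). *Pnpla5* and *Pnpla3*, which are among the 8 lipogenic genes counted, have only a bound in p110αhep-/- mice, so the size of their fall cannot be set against that in p110αhep+/+ mice, where *Pnpla5* was above background on 2 and *Pnpla3* on 1 of the 6 arrays of fasted mice. In fed mice, where both were above background on every array, the difference of p110αhep-/- from p110αhep+/+ mice was -3.16 for *Pnpla5* and -2.75 for *Pnpla3*. *Fasn*, which fell by 4.47 in p110αhep+/+ mice, did not pass (interaction 0.74 (SE 0.27, limma adjusted p = 0.118)), nor did *Srebf1* (0.22 (SE 0.29, limma adjusted p = 0.739)).

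For *Fabp5* the 2 genotypes changed in opposite directions. *Fabp5*, a fatty acid binding protein, rose from 9.71 to 12.08 (median 10.83) to 12.09 to 13.50 (median 12.37) in p110αhep-/- mice (1.53 (SE 0.29, limma adjusted p = 3.95e-05)) and fell from 12.08 to 13.67 (median 13.00) to 9.99 to 11.52 (median 10.57) in p110αhep+/+ mice (-2.45, limma adjusted p = 4.64e-09). The interaction was 3.98 (SE 0.40, limma adjusted p = 6.68e-09), and 3.74 to 4.22 with single arrays left out. *Rad51b*, a DNA repair gene, rose by 2.94 (SE 0.53, limma adjusted p = 2.4e-05) in p110αhep-/- mice and was not called in p110αhep+/+ mice, at -0.39 (interaction 3.33 (SE 0.75, limma adjusted p = 0.00687)), with replicate 2 of fed p110αhep-/- mice at 10.8 and the other 5 at 8.07 or less. Without that array the rise was 3.28 and the interaction 3.67.

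Negative interactions included the main gluconeogenic gene. *Pck1* rose by 2.18 in p110αhep+/+ mice, from 13.94 to 16.49 (median 14.89) to 16.70 to 17.32 (median 17.08), against 0.76 in p110αhep-/- mice, an interaction of -1.41 (SE 0.29, limma adjusted p = 0.00356). The difference of p110αhep-/- from p110αhep+/+ mice on the log2 scale was 0.02 (SE 0.20, limma adjusted p = 0.964) in fasted and 1.43 (SE 0.21, limma adjusted p = 2.36e-06) in fed mice. *Trib3*, an inhibitor of Akt, was called in p110αhep+/+ but not in p110αhep-/- mice (1.52 against 0.52), with an interaction of -1.0 (SE 0.24, limma adjusted p = 0.0108). The FOXO targets *Igfbp1* (interaction -1.37 (SE 0.63, limma adjusted p = 0.235)) and *Irs2* (-1.04 (SE 0.37, limma adjusted p = 0.104)) rose in both genotypes, and their interactions did not pass. *Arl4d*, a small GTPase, rose by 1.1 in p110αhep+/+ mice and was not called in p110αhep-/- mice (-0.50), an interaction of -1.60 (SE 0.39, limma adjusted p = 0.0127). Of 30 P450 genes, the interaction was negative for 4 and positive for none, beside 0.688% and 0.625% of all genes tested. With 1 array left out the calls of *Cyp1a2*, *Cyp2f2* and *Cyp2c54* were lost in 16, 7 and 2 of 24 fits. No interaction passed among the glucocorticoid, clock, ER chaperone or cell cycle lists, beside 1.31% of all genes tested.

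The response of p110αhep-/- mice was also set beside their response on HFD, a comparison that shares the 12 arrays on CTRL diet with the one between genotypes. On HFD, fasting changed 1209 genes (5.9%), of which 565 rose (2.76%) and 644 fell (3.14%), and the difference from the response on CTRL diet was called for 591 (2.88%), 227 more positive (1.11%) and 364 more negative (1.78%) on HFD. The count was 457 and 199 within the 2 washing batches, and 657 without replicate 3 of fed mice on HFD, the array that lay apart, where 1289 genes were called on HFD (587 rose, 702 fell). The interaction was negative for 23 of 36 PPARα targets, whose median response on HFD was 0.32, and for 13 of 21 genes of fatty acid oxidation, whose median was -0.03. It was positive for 14 of 25 ER chaperone genes, with a median of 0.14, and for 8 of 20 lipogenic genes, with -0.88, *Pnpla3* and *Pnpla5* of bound only among the 8. For 2 lipogenic genes, *Elovl5* (-1.38) and *Fads2* (-0.74), it was negative, and for *Fads2* the call was lost in 16 of 24 fits that left out 1 array. Of the positive calls, those of *Srebf1*, *Acaca* and *Mid1ip1* were lost in 15, 11 and 2 of these fits, and those of the ER genes *Xbp1*, *Calr* and *Pdia4* in 12, 4 and 3. Without replicate 3 of fed mice on HFD, it was negative for 27 PPARα targets and 15 genes of fatty acid oxidation, and positive for 14 ER chaperone and 6 lipogenic genes, with 1 lipogenic gene negative.

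*Lamb3*, a laminin chain, had the most negative interaction. It read 6.71 to 7.27 (median 7.02) in fed and 9.23 to 11.36 (median 9.77) in fasted mice on CTRL diet, where it rose by 2.95, and 7.05 to 9.25 (median 8.26) in fed and 7.29 to 7.99 (median 7.74) in fasted mice on HFD, an interaction of -3.66 (SE 0.42, limma adjusted p = 5.9e-08). *Cidec* read 8.73 to 11.09 (median 9.11) in fed and 8.94 to 11.95 (median 10.18) in fasted mice on HFD, a change of 0.56 and an interaction of -3.52 (SE 0.62, limma adjusted p = 0.000154). Its fed mice on HFD lay below the range of the fasted mice on CTRL diet. For *Pdk4* the change on HFD was 1.25, an interaction of -2.88 (SE 0.58, limma adjusted p = 0.00095).

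Among positive interactions, *Cyp2c70* read 14.15 to 15.73 (median 14.82) in fed and 15.63 to 16.04 (median 15.86) in fasted mice on HFD, a change of 1.06 and an interaction of 3.42 (SE 0.43, limma adjusted p = 3.5e-07). *Slc2a4* changed by -0.36 (2.52 (SE 0.31, limma adjusted p = 2.25e-07)). *Derl3* rose by 1.72 on HFD, against -1.69 on CTRL diet (3.41 (SE 0.72, limma adjusted p = 0.00151)), and *Sdf2l1* changed by 0.49 (2.64 (SE 0.53, limma adjusted p = 0.000938)). *Fasn* still fell on HFD, at -2.30, an interaction of 1.43 (SE 0.29, limma adjusted p = 0.000947). Metallothioneins and the other glucocorticoid responsive genes had no called interaction, beside 2.88% of all genes tested, with *Mt2* at 4.52 on HFD and 4.73 on CTRL diet.

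**Figure D5:**
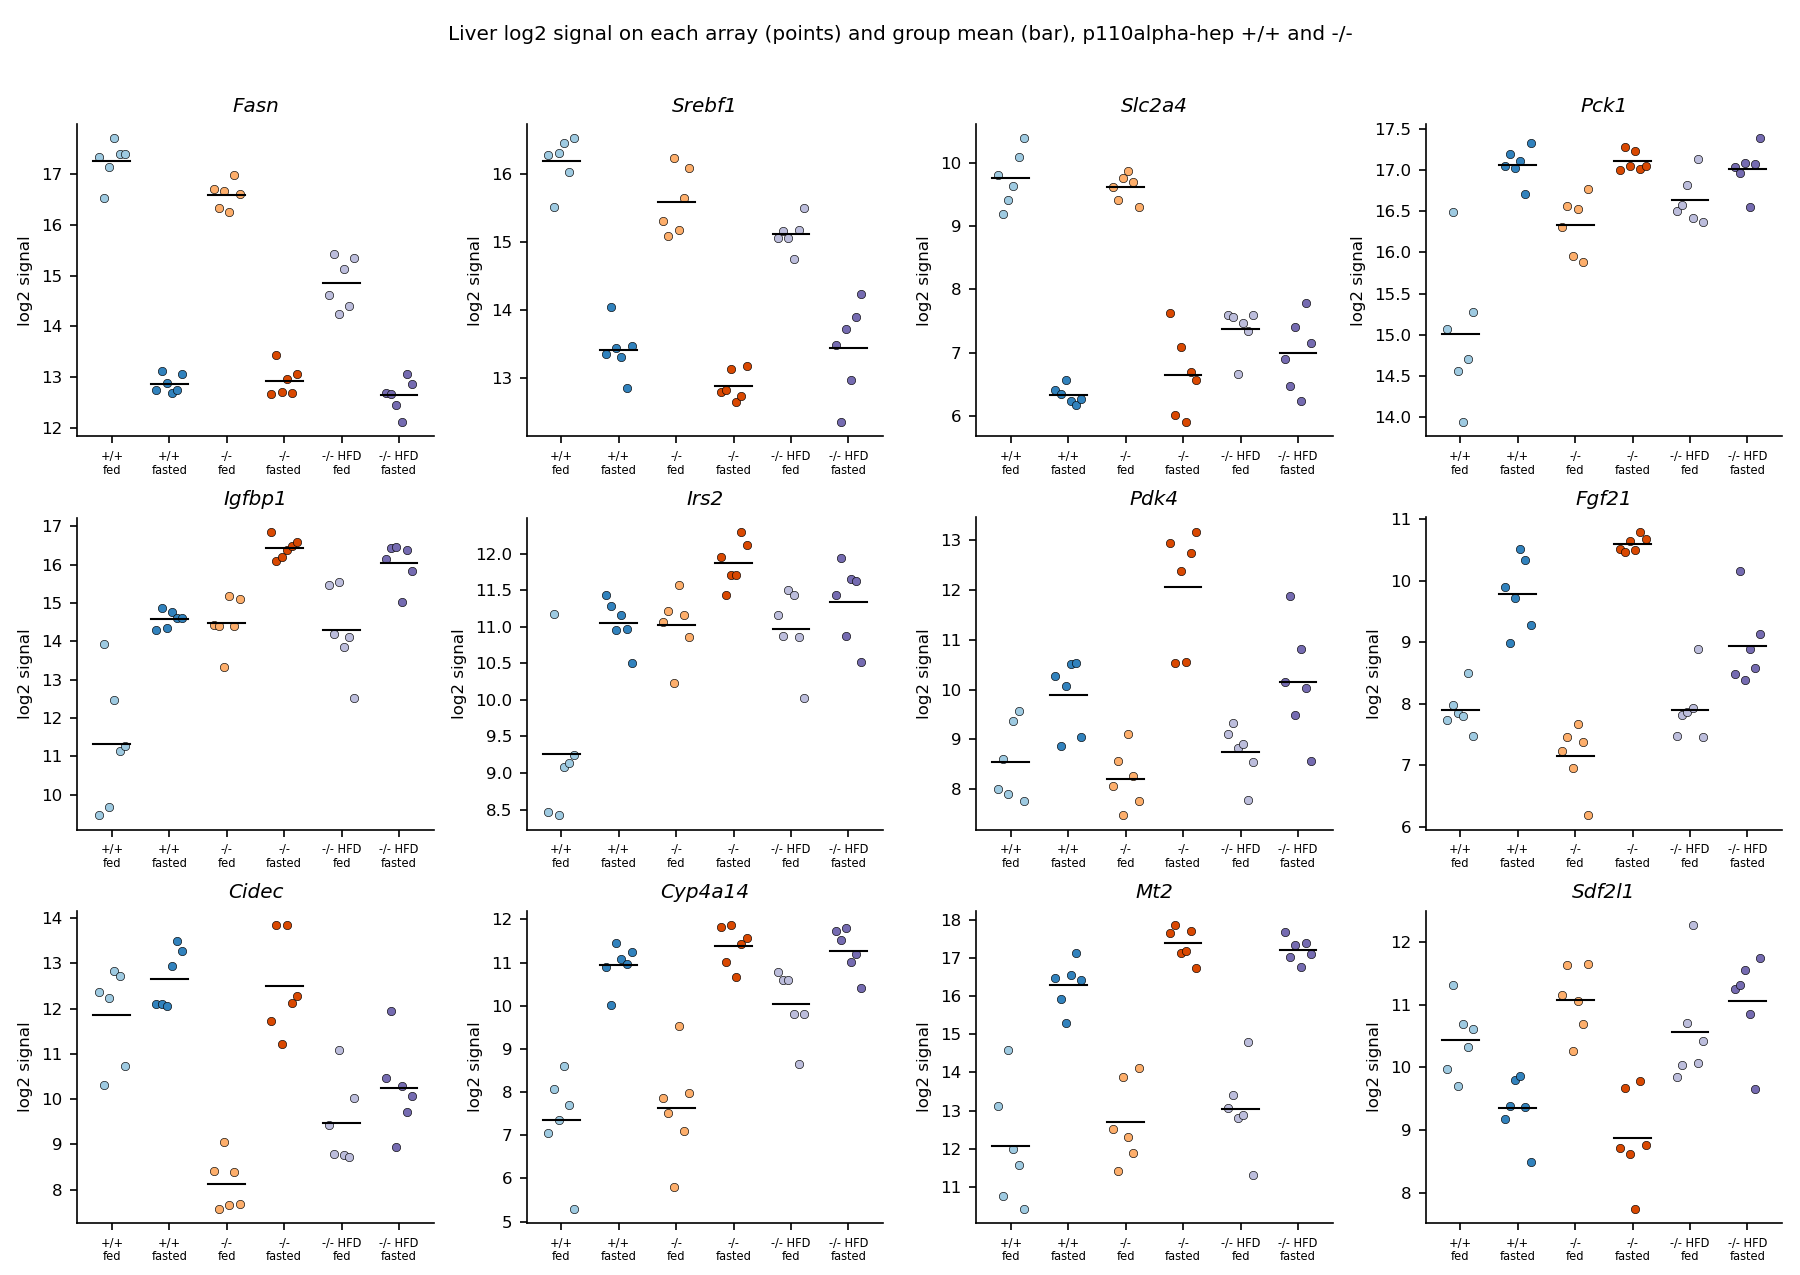
Normalized log2 signal of 12 genes on every array (points) with group means (bars) in fed and fasted p110αhep+/+ and p110αhep-/- mice on CTRL diet and p110αhep-/- mice on HFD, 6 mice per group. *Cidec* and *Pdk4* show their widest gap between fed and fasted in p110αhep-/- mice on CTRL diet, and *Mt2* has a gap in all 3 pairs of groups.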

How the data were processed

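Liver RNA was read on one-colour Agilent arrays, 1 per mouse. The authors labelled 200 ng of RNA with Cy3, washed the 6 slides in 2 batches of 3 and extracted signals with Agilent Feature Extraction 10.10.1.1. The deposited scanner files hold the intensity of each spot, not normalized, and a deposited table holds log2 values that the authors filtered, corrected for washing batch and quantile normalized; it was used as an alternative, its unnamed filter being unknown here. Groups and replicate numbers came from the labels.

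Following the methods of the study, the median signal intensity of the 59305 non-control spots was log2 transformed, outlier spots (97 to 145 on the 12 arrays) were left out and spots of a probe averaged. Probes well above background on at least 5 of 6 arrays of 1 group or more were kept (30793 of 56605). The washing batch was removed with group means protected, and arrays were quantile normalized. All 48 arrays were fitted in limma 3.58.1 (R 4.3.3) with 8 group means and array weights (0.64 to 1.61 on the 12 arrays), which can set a fold change slightly off from the plain means of its groups. Benjamini-Hochberg adjustment ran across every probe kept. A gene stands for its brightest probe and was called past a fold change of 1.5 where its adjusted p did not exceed 0.05. Bounds are given where no array of a group was above background. The number of arrays limits the precision.

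Named genes are members of the lists, the 12 largest rises and falls whose arrays do not overlap and the 6 most positive and negative interactions, genes without a characterised symbol being passed over. Lists and members were chosen with earlier results of these data known, and are described by counts and medians without a test. Promoters and symbols are from RefSeq (GRCm38.p6), with a promoter for 481 of 613 named genes. Positions of probes (mm9) come from the deposited scanner files. On simulated data, 198 of 200 genes given a log2 change of 1 among 20486 were recovered for this comparison (99%), with 3 false calls. The simulated noise was independent between probes, with 1 spread per probe and no washing batch or distant array, so these shares may not hold for the real arrays or for smaller changes. A few genes are counted in lists but not reported here. Alternatives were other signals, scalings, filters, weights, batch terms and thresholds, the deposited log2 table, single arrays left out and, added after seeing the data, replicates 5 and 6 of the fasted p110αhep-/- mice left out together.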

Additional observations from a re-analysis of the deposited data

Results flagged for a closer look

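Among 96 sets of 6 arrays examined, 4 had 1 array far from the rest, by a gap of more than 0.625 of the range; chance gives about 1 in 20. *Rad51b* read 10.8 in replicate 2 of fed p110αhep-/- mice on CTRL diet, and the next highest array 8.07. *Car1* read 9.22 in replicate 1 of the same group, next to 8.74, and without that array its fasting change was -0.52 (limma adjusted p = 0.012, under the fold threshold) and its genotype interaction -1.1. Its fasting call was also lost without replicate 4, 5 or 6 of the fasted mice, with -0.51 as the value closest to 0. The summed erythroid markers were lowest in replicate 2 of fed mice, at 18.1 against 18.8 for the next array. The summed stellate cell and fibroblast markers were lowest in replicate 6 of fasted mice, at 14.9 against 15.1.

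The response to fasting on CTRL diet differed between genotypes, by the interaction of p110αhep-/- over p110αhep+/+ mice on the log2 scale, for genes that rose more or fell less without p110α: *Fabp5* (3.98, called in opposite directions), *Cidec* (3.49), *Rad51b* (3.33), *Pdk4* (2.80), *Acot2* (2.01), *Vnn1* (1.74), *Fgf21* (1.52), *Acot5* (1.5), *Elovl6* (1.08) and *Acot1* (1.01). The call of *Acot1* was lost in 15 of 24 fits that left out 1 array, with an adjusted p of up to 0.0815. It differed in the other direction for *Clec2h* (-1.70, lost in 16 of 24 such fits), *Arl4d* (-1.60), *Slc22a7* (-1.59, lost in 7), *Pck1* (-1.41), *Car1* (-1.19) and *Rnd1* (-1.15).

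In p110αhep-/- mice the response differed between diets, as HFD minus CTRL diet on the log2 scale. It was more negative on HFD for *Lamb3* (-3.66), *Cidec* (-3.52), *Pdk4* (-2.88), *Acot2* (-2.76), *Cyp4a14* (-2.70), *G0s2* (-2.55), *Vnn1* (-2.38), *Fgf21* (-2.30), *Cyp4a10* (-2.16), *Acot5* (-2.16), *Fabp5* (-1.85) and *Acot1* (-1.76). It was more positive for *Cyp2c70* (3.42), *Derl3* (3.41), *Sdf2l1* (2.64), *Slc2a4* (2.52), *Serpina9* (2.24), *Fasn* (1.43), *Ihh* (1.32), *Mid1ip1* (1.24) and *Srebf1* (0.95). The calls of *Srebf1*, *Ihh* and *Mid1ip1* were lost in 15, 3 and 2 of 24 fits that left out 1 array.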

How the results depend on the processing

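The 1449 genes called for fasting in p110αhep-/- mice became 2374 with Agilent's processed signal, scaled by each array's 75th percentile (1306 fell), where p110αhep+/+ mice had 1823. With no fold threshold, the counts were 7260 (3350 rose, 3910 fell), 6658 in p110αhep+/+ mice, 803 for the genotype and 1618 for the diet interaction. With a fold over 2 they were 421, 213, 208, 330, 74 and 198 in the same order. The genotype interaction fell to 162 genes with no filter on dim probes, 164 without array weights, and 107 and 18 within single washing batches, and the diet interaction to 199 within the second batch; a single batch has 3 mice per group. Leaving out single arrays gave 1413 to 1492 genes, 728 to 757 that rose, 666 to 743 that fell, 206 to 354 for the genotype interaction, 500 to 657 for the diet interaction, and 1044 to 1222 in p110αhep+/+ mice. Over the median of a gene's probes, the genotype interaction of *Acacb* reversed to -0.062. The cause was not tested. Of 206 named genes called for fasting, 91 passed under every alternative, and none changed direction. The stricter threshold of a fold over 2 by itself removed 100 of these calls. Leaving out replicates 5 and 6 of fasted p110αhep-/- mice together, chosen after seeing the data, gave 284 genes for the genotype and 550 for the diet interaction. Arrays with the same replicate number did not deviate together (correlations -0.13 to 0.05). These correlations gave no sign that the numbers pair mice, and the labels do not say what the numbers stand for. With the replicate number as a block, 1458 genes were called, 248 for the genotype and 619 for the diet interaction, and 1116 in p110αhep+/+ mice. Genes near background, such as *Pnpla3* and *Pnpla5* in fasted mice, have only a bound, and 1 brightest probe per gene hides disagreement between probes.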
